A study of Mus musculus with 8 samples.

Results

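Described here are 9 genes known from both blood stem cells and vascular endothelium: Angpt1, Tek, Tie1, Kdr, Robo4, Eng, Cdh5, Esam and Pecam1. They were taken by name from the 18193 genes of a microarray study, with no filter on their measured values. Earlier results of these data were known when the genes were chosen. All 9 were measured, by 12 probe sets. Where a gene had several probe sets, the one with the highest average was used, and the others served as a check. The study profiled LSK cells (low for lineage markers, positive for Sca1 and high for cKit), the sorted fraction of mouse bone marrow that holds the stem cells and early progenitors. The cells came from 4 mice heterozygous for Jak2V617F and from 4 wild type (WT) mice, all labelled strain C57BL/6, with 1 array per mouse. Jak2 carries signals from cytokine receptors, and the V617F form, which is active without ligand, drives myeloproliferative neoplasms. The sources used here give neither the construct that carried the mutant allele nor the age or sex of the mice, and these arrays do not read the mutation itself. Values are deposited log2 intensities, so a difference of 1 is a doubling, and all changes are Jak2V617F minus WT. Precision is limited by the number of arrays.

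Blood stem cells arise in the embryo from endothelium, and adult stem cells keep part of the endothelial surface programme. Angiopoietin 1 (Angpt1) is the activating ligand of the receptor kinase Tie2 (Tek), a pathway known in mice for keeping stem cells quiescent in the marrow, and Tie1 is the related receptor that pairs with Tie2. Kdr is the main receptor for vascular endothelial growth factor, Robo4 is an endothelial member of the Roundabout guidance receptors, and endoglin (Eng) is a co-receptor for ligands of the Tgf-beta and Bmp family. VE-cadherin (Cdh5), Esam and Pecam1 are adhesion molecules of the junctions between endothelial cells, and Esam also marks stem cells of the mouse.

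The set divided into 7 genes that were clearly detected in LSK cells and 2, Kdr and Cdh5, that read at the level of genes not expected in blood. That level was set from 26 measured genes of other tissues, such as those for liver albumin and muscle troponin, whose 90th percentile over genes and arrays was 6.78 on the log2 scale. It serves as a guide only, since background differs by probe set, and the means of these 26 genes ran from 3.76 to 7.98. Angpt1, Tek, Tie1, Robo4, Eng, Esam and Pecam1 lay above 6.78 in all 8 arrays, with gene means 3.49 to 6.49 above it. Kdr and Cdh5 lay below it in all 8 arrays, and their means minus this level were -1.02 and -1.87. Over all genes, 62.4% had a mean above this level.

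**Figure D1:**
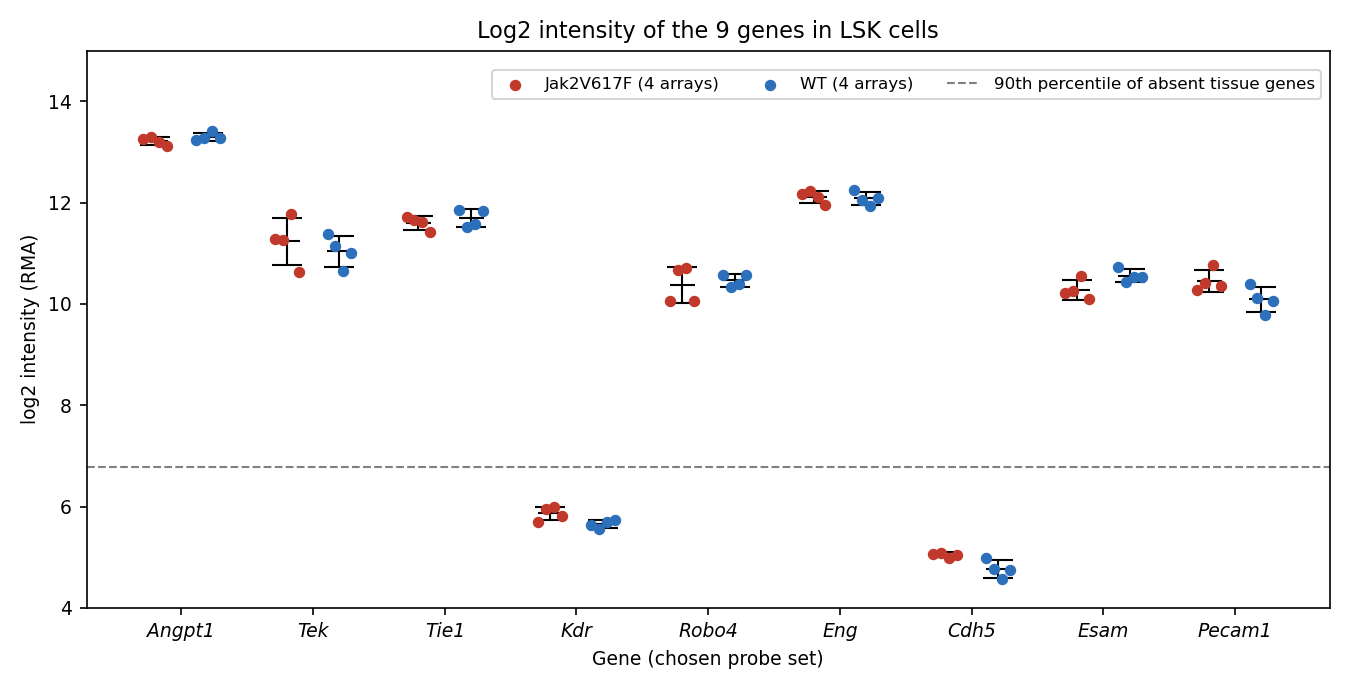
Log2 intensity of each of the 9 genes, 1 point per array, in Jak2V617F (red, left of each pair) and WT (blue, right) LSK cells. Black bars give mean and SD (n = 4 each), and the dashed line is the 90th percentile of genes of other tissues, 6.78. Kdr and Cdh5 lie under the line in every array and the other 7 genes lie above it.

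The division was seen only in part among wider markers. All 7 measured stem and progenitor surface markers read above 6.78, among them Kit at 12.67 in Jak2V617F and 12.64 in WT cells, Cd34 at 13.93 and 14.04, and the signalling lymphocyte receptor gene Slamf1 at 9.79 and 9.07. Of these 7 markers, 0 were called (limma). Cd48 and Slamf1 had an unadjusted p under 0.05 and a higher mean in Jak2V617F cells, as for 11.9% of all genes. Cd48 was at 13.76 in Jak2V617F and 13.41 in WT cells. Arrays did not overlap for Cd48 and Cd34, as for 10.1% of all genes. The gene of Sca1, Ly6a, was not measured by a singly named probe set. Of 15 measured genes that define endothelium, 9 read at or under 6.78, including Nos3, the endothelial nitric oxide synthase, at 5.96 in Jak2V617F and 5.49 in WT cells, and Lyve1, of lymphatic and sinusoidal vessels, at 5.69 and 5.48. The 6 above that level were Adgrl4, Exoc3l2, Ecscr, Vwf, Cyyr1 and Plvap. Adgrl4 read 14.04 in Jak2V617F and 14.10 in WT cells, Exoc3l2 11.54 and 11.55, and Ecscr 9.82 and 9.86. Vwf read 9.41 and 9.02 and Cyyr1 8.26 and 8.51, while Plvap was close to that level at 7.02 and 6.59. These 6 and the claudin gene Cldn5 were singled out after their values were seen. Cldn5 averaged 6.19 in Jak2V617F and 6.21 in WT cells, with single WT arrays at 5.30, 5.19, 6.86 and 7.48. Of the 15 genes, 0 were called (limma) and 5 had an unadjusted p under 0.05. These 5 were higher in Jak2V617F cells, as for 11.9% of all genes, and all but Plvap read at or under 6.78. Arrays did not overlap for 3 of the 15, as for 10.1% of all genes. In bulk RNA of sorted cells, fewer cells of a type and less RNA per cell cannot be told apart.

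No member was called different between the genotypes. With limma, adjusted over all 18193 genes at a threshold of 0.05, 0 of 9 members passed, against 0.165% of all genes (30 genes; 0.104% higher and 0.0605% lower). Without adjustment 4 members had a p under 0.05, against 17.2% of all genes. These were Cdh5, Kdr and Pecam1 with a higher mean in Jak2V617F cells, as for 11.9% of all genes, and Esam with a lower mean, as for 5.23% of all genes. The change was above 0 for 5 of 9 members and for 62.6% of all genes. The 4 Jak2V617F arrays overlapped the 4 WT arrays for each of the 9 members, whereas 10.1% of all genes had arrays that did not overlap. The median change of the 9 members was 0.03, beside a median of 0.05 over all genes.

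**Figure D2:**
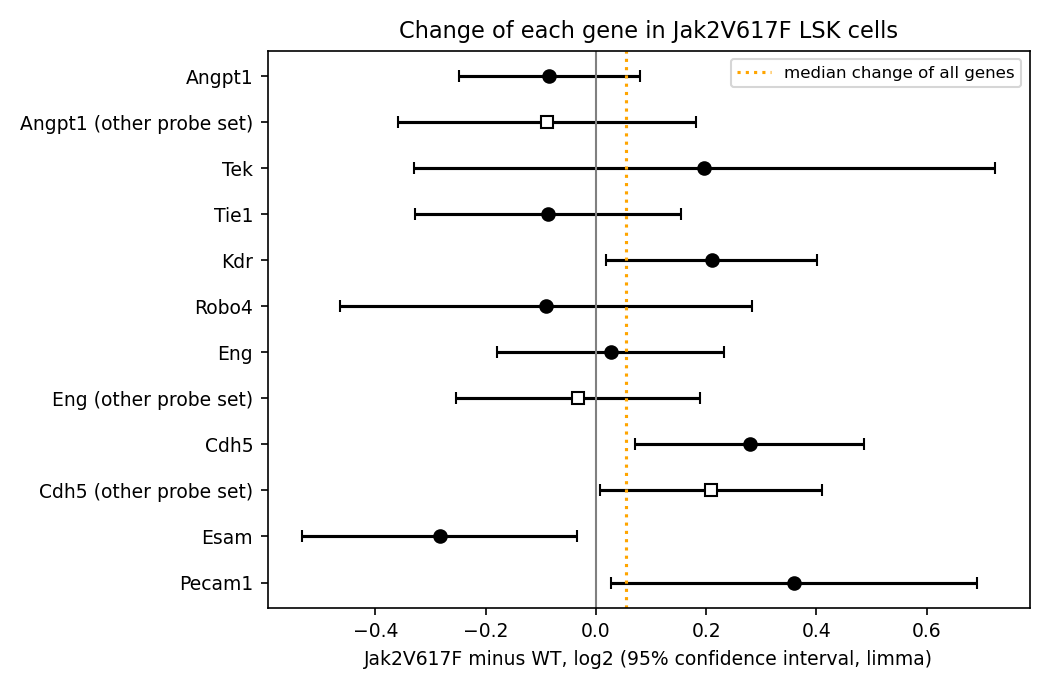
Change of each gene, Jak2V617F minus WT on the log2 scale, with its 95% confidence interval from limma. Filled circles are the chosen probe sets and open squares the other probe sets of the same gene, and the dotted line is the median change of all genes (0.05). The widest interval is that of Tek, and the 2 probe sets of Angpt1, of Eng and of Cdh5 lie close to each other.

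Angpt1, the ligand, was steady across all 8 arrays by its chosen probe set. It read 13.26, 13.30, 13.20 and 13.12 in Jak2V617F cells, against 13.24, 13.28, 13.42 and 13.28 in WT cells. The groups overlapped, although Jak2V617F replicates 3 and 4 lay below every WT array. The change was -0.08 ± 0.073 (SE; limma adjusted p = 0.555), with a 95% confidence interval of 0.842 to 1.06-fold. A further Angpt1 probe set differed by -0.09 but was less steady. Its SD was 0.10 in Jak2V617F and 0.23 in WT cells, with WT replicates 2 and 3 at 11.19 and 11.76. The pooled SD of the chosen probe set within genotypes was 0.079, smaller than that of most detected genes, of which 16.7% varied less. Angpt1 is also made by stromal cells of the marrow, and 6 of 9 measured stromal markers read at or under 6.78 on average. Among these, Lepr of perivascular stroma was at 5.03 in Jak2V617F and 4.79 in WT cells, and the chemokine gene Cxcl12 was at 5.62 and 6.63. The other 3 averaged above that level over all 8 arrays. Pdgfrb, a receptor of mural and stromal cells, was at 11.19 in Jak2V617F and 10.73 in WT cells. Postn was at 6.78 and 7.77 and the collagen gene Col1a2 at 6.51 and 8.23, so both passed through their WT values. The part of stromal RNA in the Angpt1 level was not tested. Without Jak2V617F replicate 4 or WT replicate 3 the change of Angpt1 was -0.05 in each case.

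Tek, the receptor for Angpt1, varied most among the 9 genes. Its values were 11.28, 11.26, 11.77 and 10.64 in Jak2V617F cells, against 11.38, 11.14, 10.65 and 10.999 in WT cells. The highest and the lowest of all 8 arrays were both Jak2V617F arrays, replicates 3 and 4. The means were 11.24 ± 0.46 in Jak2V617F and 11.04 ± 0.31 in WT cells (SD, n = 4 each), a change of 0.20 ± 0.233 (SE; limma adjusted p = 0.673). The confidence interval of 0.795 to 1.65-fold leaves room for changes in either direction. The pooled SD of Tek, 0.393, was larger than that of 94.9% of detected genes. Without Jak2V617F replicate 3 the change was 0.02, and without Jak2V617F replicate 4 it was 0.40 (limma adjusted p of 0.97 and 0.453). Without WT replicate 3 it was 0.07 and without WT replicate 1 it was 0.31.

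Tie1, the partner receptor of Tie2, differed less between arrays than Tek. It read 11.73, 11.67, 11.62 and 11.41 in Jak2V617F cells, against 11.85, 11.51, 11.57 and 11.84 in WT cells. Only Jak2V617F replicate 4 lay outside the WT range, below it. The change was -0.09 ± 0.107 (SE; limma adjusted p = 0.684), with an interval of 0.796 to 1.11-fold. It was -0.02 without Jak2V617F replicate 4, -0.03 without WT replicate 1, -0.04 without WT replicate 4 and -0.15 without WT replicate 2.

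Eng, the co-receptor for Bmp ligands, had nearly the same level in both genotypes. Its values were 12.16, 12.23, 12.11 and 11.95 in Jak2V617F cells, against 12.26, 12.05, 11.94 and 12.09 in WT cells. All Jak2V617F arrays lay within the WT range. The change was 0.03 ± 0.091 (SE; limma adjusted p = 0.897), with an interval of 0.883 to 1.18-fold, and the further Eng probe set differed by -0.03.

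Robo4 split the Jak2V617F arrays into a high and a low pair. It read 10.06, 10.68, 10.70 and 10.07 in Jak2V617F cells, against 10.57, 10.33, 10.39 and 10.58 in WT cells. Replicates 2 and 3 lay above every WT array and replicates 1 and 4 below every WT array, so that the SD was 0.36 in Jak2V617F and 0.13 in WT cells. The mean change was -0.09 ± 0.165 (SE; limma adjusted p = 0.793), and with a single array left out it ran from -0.20 without Jak2V617F replicate 3 to 0.01 without Jak2V617F replicate 1 or replicate 4.

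Esam, the adhesion molecule that marks stem cells, had the lowest change of the set. Its values were 10.22, 10.26, 10.55 and 10.09 in Jak2V617F cells, against 10.74, 10.44, 10.54 and 10.53 in WT cells. Of the 4 Jak2V617F arrays 3 lay below every WT array, and replicate 3 lay above all but 1 of them. The means were 10.28 ± 0.20 in Jak2V617F and 10.56 ± 0.13 in WT cells (SD, n = 4 each), a change of -0.28 ± 0.110 (SE), or 0.822-fold with an interval of 0.691 to 0.976-fold. The unadjusted p was 0.0298 and the limma adjusted p 0.248, so Esam was not called. A single probe set measured it.

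Pecam1, an adhesion molecule of endothelium, platelets and leukocytes, had the highest change of the set. Its values were 10.27, 10.41, 10.76 and 10.35 in Jak2V617F cells, against 10.40, 10.12, 9.79 and 10.05 in WT cells. All 4 Jak2V617F arrays lay above the WT mean, and WT replicate 1 overlapped them. The means were 10.45 ± 0.22 in Jak2V617F and 10.09 ± 0.25 in WT cells (SD, n = 4 each), a change of 0.36 ± 0.147 (SE), or 1.28-fold with an interval of 1.02 to 1.61-fold. The unadjusted p was 0.0369 and the limma adjusted p 0.263, so Pecam1 was not called, and it too had a single probe set.

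Markers of several mature blood lineages had positive changes, a direction seen for 62.6% of all genes. The changes of all 13 measured macrophage and dendritic cell markers were above 0 (median 0.62), and their summed linear intensity ran from 26233 to 36333 in Jak2V617F and from 15245 to 24451 in WT arrays. The same held for all 10 measured megakaryocyte and platelet markers (median 0.38), and their sums of 10556 to 14821 in Jak2V617F and 9164 to 12212 in WT arrays overlapped. No marker of either list was called over all genes (limma), and 7 of 13 and 5 of 10 had an unadjusted p under 0.05, against 17.2% of all genes. The macrophage markers Adgre1 and C1qa and the platelet marker Clec1b read at or under 6.78 on average, and the other markers of both lists above it. Erythroid markers did likewise, with 9 of 9 changes above 0, a median of 0.64, 6 unadjusted p under 0.05 and sums of 19984 to 32014 in Jak2V617F and 12114 to 21454 in WT arrays. For granulocyte markers 7 of 8 changes were above 0 (median 0.405), and for lymphoid markers 6 of 8 (median 0.09), with 1 unadjusted p under 0.05 in each list. The part of any of these cells in the Pecam1 value was not tested.

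Kdr and Cdh5 read slightly higher in Jak2V617F arrays. At their level, 76.3% of genes had a change above 0. Kdr read 5.70, 5.96, 5.99 and 5.82 in Jak2V617F cells, against 5.64, 5.56, 5.70 and 5.73 in WT cells, a difference of 0.21 ± 0.084 (SE; limma adjusted p = 0.258). Cdh5 read 5.07, 5.08, 4.98 and 5.05 in Jak2V617F cells, against 4.99, 4.76, 4.58 and 4.74 in WT cells, a difference of 0.28 ± 0.092 (SE; limma adjusted p = 0.205). For each gene 3 Jak2V617F arrays lay above every WT array and the remaining one lay within the WT range. The other Cdh5 probe set differed by 0.21.

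Small positive differences were common among genes at this level. Of the 6841 genes at or under 6.78, 76.3% lay above 0 in their change, the median was 0.11, and 15.8% had an unadjusted p under 0.05 with a positive change. Among the 11352 genes above it, 54.4% had a change above 0 and the median was 0.02. The genes of other tissues behaved alike, with 18 of 26 above 0 and a median of 0.14. Repeating quantile normalization over the named genes brought Kdr to 0.08 and Cdh5 to 0.17 (limma adjusted p of 0.714 and 0.416). Before that step, both differed by more than the median of 0.11 at this level, and the cause of their differences was not tested. No fold change is given for Kdr and Cdh5.

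**Figure D3:**
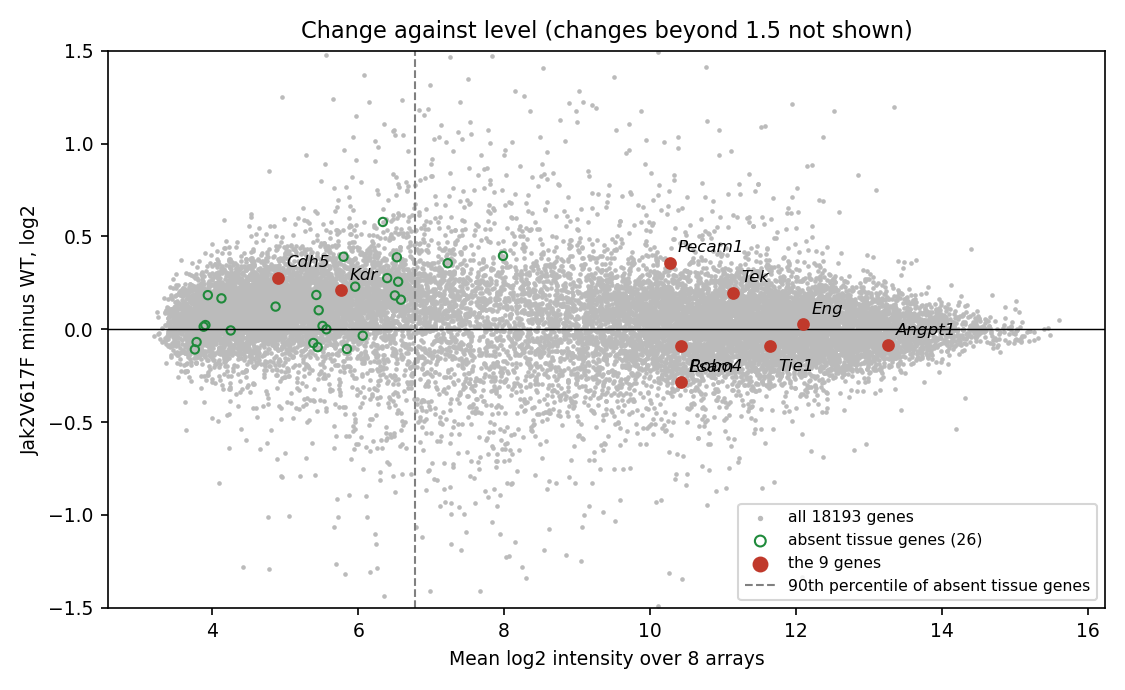
Change, Jak2V617F minus WT on the log2 scale, against mean log2 intensity over 8 arrays for all 18193 genes (grey), the 26 genes of other tissues (green circles) and the 9 genes (red). The dashed line is at 6.78. Kdr and Cdh5 lie within the low-level genes, which lie above 0 in 76.3% of cases, and the 7 detected genes lie on both sides of 0.

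Among the 7 detected genes, the lowest and highest values within a genotype often fell on the same array. Jak2V617F replicate 4 was the lowest of the 4 Jak2V617F arrays for 5 of 7 genes, Tek, Tie1, Esam, Eng and Angpt1, and was the lowest for 27.4% of all detected genes. Jak2V617F replicate 3 was the highest for 4 genes, Tek, Esam, Robo4 and Pecam1, and for 30.5% of all detected genes. Among WT arrays, replicate 1 was the highest for 5 of 7 genes, Tek, Tie1, Esam, Eng and Pecam1, and for 25.4% of all detected genes.

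**Figure D4:**
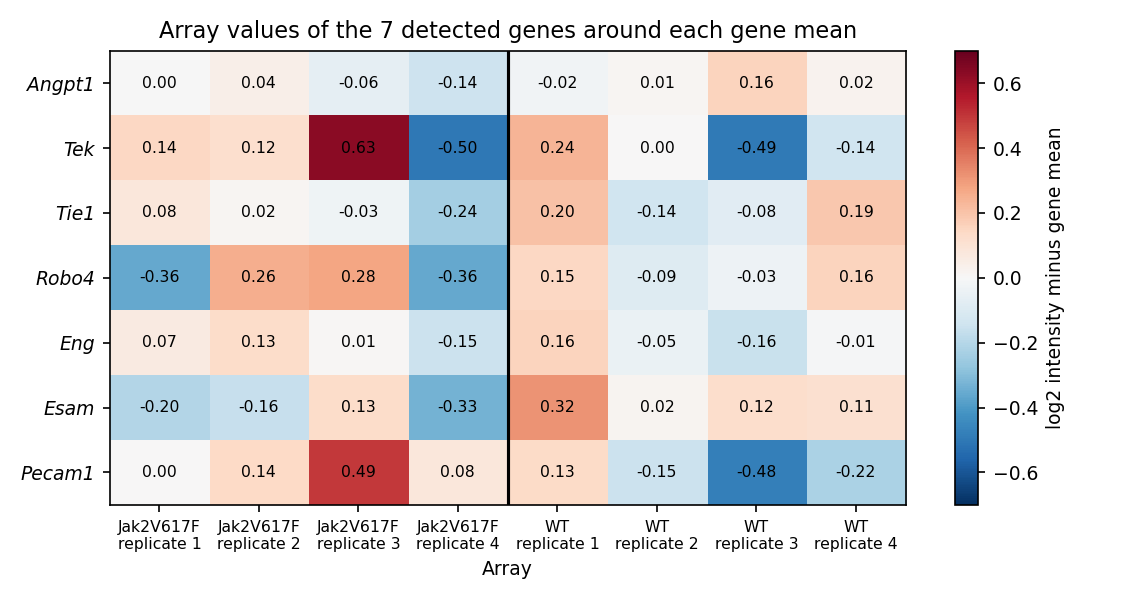
Log2 intensity minus the gene's mean over 8 arrays for the 7 detected genes (rows), with Jak2V617F arrays left and WT arrays right of the line. Red is above and blue below the gene mean. Tek has the widest spread, with 11.77 in Jak2V617F replicate 3 and 10.64 in Jak2V617F replicate 4.

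The arrays also differed in sex-linked expression. Xist, the RNA that silences an X chromosome in female cells, read 13.21 in Jak2V617F replicate 3 and 13.46 and 13.42 in WT replicates 1 and 2, and between 5.54 and 6.54 in the other 5 arrays, where Y-linked genes were high. Tek and Pecam1 were higher in the Xist-expressing than in the other arrays within both genotypes, an order seen for 5.71% of all detected genes. With sex-linked expression as a covariate, the change of Pecam1 was 0.45 ± 0.098 (SE; limma adjusted p = 0.0983) and that of Tek 0.34 ± 0.171 (SE; limma adjusted p = 0.336). In the arrays with Y-linked expression alone, 3 Jak2V617F and 2 WT, the changes were 0.43 for Pecam1, 0.24 for Tek and -0.35 for Esam, with 0 of 9 members called (limma).

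The 9 genes lie on 7 chromosomes of assembly GRCm38.p6, and Robo4 and Esam are close neighbours. Robo4 (chr9:37401902-37414023) ends 114.1 kb before Esam (chr9:37528089-37538319), with the protein-coding genes Robo3 and Msantd2 between them. Robo3 was at 9.15 in Jak2V617F and 9.03 in WT cells, a change of 0.12, and Msantd2 was at 10.29 and 10.33, a change of -0.04. The 4 genes of this stretch thus had changes of -0.09, 0.12, -0.04 and -0.28, none of them called (limma). Tek and Tie1 are both on chromosome 4, 23.6 Mb apart. Of the nearest protein-coding genes, Milr1, a receptor gene of mast cells next to Pecam1, was at 10.78 in Jak2V617F and 10.39 in WT cells (0.38 ± 0.122, SE; limma adjusted p = 0.196). Kit, the nearest measured gene before Kdr, differed by 0.02.

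Promoters of the set are shown for Tie1 and Eng, detected receptors whose 250 bases before the tabulated start lie wholly outside the annotated gene. RefSeq promoter windows of GRCm38.p6 were found for 5 members, Tek, Tie1, Kdr, Robo4 and Eng. Capitals mark the letters GGAA, the core bound by Ets family factors such as Fli1 and Erg, or its reverse complement TTCC. The Tie1 window is chr4:118489850-118490099, minus strand, and the Eng window is chr2:32646345-32646594, plus strand.
Tie1: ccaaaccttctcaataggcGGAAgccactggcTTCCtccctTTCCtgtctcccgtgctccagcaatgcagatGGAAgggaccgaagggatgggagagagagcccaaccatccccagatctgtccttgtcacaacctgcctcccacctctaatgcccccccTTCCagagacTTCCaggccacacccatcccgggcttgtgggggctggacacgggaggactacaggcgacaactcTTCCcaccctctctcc
Eng: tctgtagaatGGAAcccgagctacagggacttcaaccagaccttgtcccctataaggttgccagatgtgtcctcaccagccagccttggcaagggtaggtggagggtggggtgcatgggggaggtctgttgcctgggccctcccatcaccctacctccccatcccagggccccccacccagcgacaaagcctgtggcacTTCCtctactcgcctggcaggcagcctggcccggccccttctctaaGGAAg

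On both strands together, the Tie1 window held 7 matches to GGAA, and 3.8% of 27025 promoter windows of the same length held as many or more. The Eng and Robo4 windows held 3 each, that of Kdr 4 and that of Tek 2. At least 1 match was present in 93.4% of all windows, so the presence of a match alone does not set these genes apart. The longer letters GGAAG had 6 matches in the Tie1 window, a count reached in 0.3% of all windows. They had 2 each in Eng and Robo4, 1 in Kdr and 0 in Tek. Kdr, at background in LSK cells, had fewer matches to GGAA than the detected gene Tie1 and more than the detected genes Tek, Robo4 and Eng. The Kdr window lies wholly inside the annotated gene, as do 203 of 250 bases for Tek and 70 for Robo4. These counts are therefore not directly comparable with those of Tie1 and Eng. The Gata letters AGATAA were in none of the 5 windows and in 10.3% of all windows.

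Partner genes of the Tie and Vegf receptors were then examined. Over all genes, 0.165% were called, 17.2% had an unadjusted p under 0.05 (limma) and 10.1% had arrays that did not overlap. The change was above 0 for 62.6%. The counts of this and the following lists stand beside these shares. Of 10 measured genes of the angiopoietin and Tie pathway, 0 were called (limma) and 1 had an unadjusted p under 0.05, with 5 changes above 0 and a median of 0.003. That gene was the adaptor gene Dok2, which binds active Tie2, at 10.45 in Jak2V617F and 10.67 in WT cells (-0.23). Angpt2, Angpt4 and Ptprb, the antagonist, a further ligand and the phosphatase of Tie2, read under 6.78. Klf2, a factor of quiescent endothelium, was at 9.86 in Jak2V617F and 8.67 in WT cells, a difference of 1.19 ± 0.588 (SE; limma adjusted p = 0.332), and its arrays overlapped between the genotypes.

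Among 12 genes for Vegf ligands, receptors and adaptors, 0 were called (limma), 3 had an unadjusted p under 0.05 and the median change was -0.02. Neuropilin 1 (Nrp1), a co-receptor of Kdr, read 9.10, 9.34, 10.51 and 9.84 in Jak2V617F cells, against 7.83, 8.45, 8.77 and 8.84 in WT cells. Its groups did not overlap, and its difference was 1.22 ± 0.32 (SE; limma adjusted p = 0.14). The ligand genes Vegfc and Vegfa differed by -0.58 and -0.95 (limma adjusted p of 0.207 and 0.238). Arrays did not overlap for Vegfc but did for Vegfa. Vegfa read 7.52, 7.76, 6.97 and 7.48 in Jak2V617F cells, against 9.24, 8.88, 7.56 and 7.85 in WT cells. The 2 highest values were those of WT replicates 1 and 2, the WT arrays with Xist expression. Flt1 and Flt4, the other Vegf receptor genes, read under 6.78 like Kdr.

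Of 17 genes around endoglin, 0 were called (limma) and 7 had an unadjusted p under 0.05, with a median change of -0.06. Of these 7, 4 were higher and 3 lower, directions that held with such a p for 11.9% and 5.23% of all genes. Id1, a Bmp target that inhibits helix-loop-helix factors, read 7.64, 7.78, 7.74 and 7.78 in Jak2V617F cells, against 7.46, 6.96, 7.19 and 7.17 in WT cells. The difference of 0.54 had a limma adjusted p of 0.0819, and its relative Id2 differed by 0.73 (limma adjusted p = 0.105). For both genes the Jak2V617F arrays lay above all WT arrays. Arrays did not overlap for 5 of the 17 genes, against 10.1% of all genes, the others being Bmpr1a, Acvrl1 and Tgfb1. Bmp receptor genes near background went both ways. Acvrl1, the partner of endoglin, was at 6.85 in Jak2V617F and 6.23 in WT cells, and Bmpr1a at 6.29 and 6.90. Their limma adjusted p were 0.119 and 0.0926.

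Of 10 genes of the Robo and Slit pathway, 0 were called (limma) and 7 read at or under 6.78, including all 3 Slit ligand genes and Robo1, with a median change of -0.12. Of 14 measured junction genes, 0 were called and 3 had an unadjusted p under 0.05, with a median of 0.06. Afdn, the afadin scaffold of junctions, differed by -0.48 and the tight junction scaffold Tjp1 by 0.65 (limma adjusted p of 0.131 and 0.188). Beta-catenin (Ctnnb1), which binds VE-cadherin, was at 14.12 in Jak2V617F and 14.21 in WT cells.

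Transcription factors that endothelium and stem cells share were detected for 16 of 19 genes, and 0 were called (limma). The median change was -0.06, with 15 of 19 changes below 0, 4 above 0 and 3 with an unadjusted p under 0.05. A change above 0 was seen for 62.6% of all genes and for 54.4% of genes above 6.78. Ets2 was at 13.19 in Jak2V617F and 13.51 in WT cells (-0.32), and Mecom, a stem cell factor, at 12.43 and 12.78 (-0.34), with limma adjusted p of 0.14 and 0.154 and no overlap of arrays for either. Erg, an Ets factor of both lineages, differed by 0.16 (limma adjusted p = 0.354). Sox17 was under 6.78, at 4.45 in Jak2V617F and 4.20 in WT cells.

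Of 15 other surface genes shared by both lineages, 1 was called, the sialomucin gene Podxl. It read 10.46, 10.98, 11.28 and 10.67 in Jak2V617F cells, against 9.51, 9.46, 9.24 and 9.21 in WT cells, a rise of 1.49 ± 0.169 (SE; limma adjusted p = 0.0133). Without Jak2V617F replicate 2, WT replicate 2 or WT replicate 3 its limma adjusted p was 0.056, 0.0506 and 0.0648, in the arrays with Y-linked expression alone it was 0.0576, and with its probe sets averaged the change was 0.83. The related sialomucin gene Emcn differed the other way, by -0.84 ± 0.140 (SE; limma adjusted p = 0.0652), with every Jak2V617F array below every WT array. The thrombomodulin gene Thbd differed by 0.49 and the receptor subunit gene Ramp2 by -0.28 (limma adjusted p of 0.223 and 0.258).

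**Figure D5:**
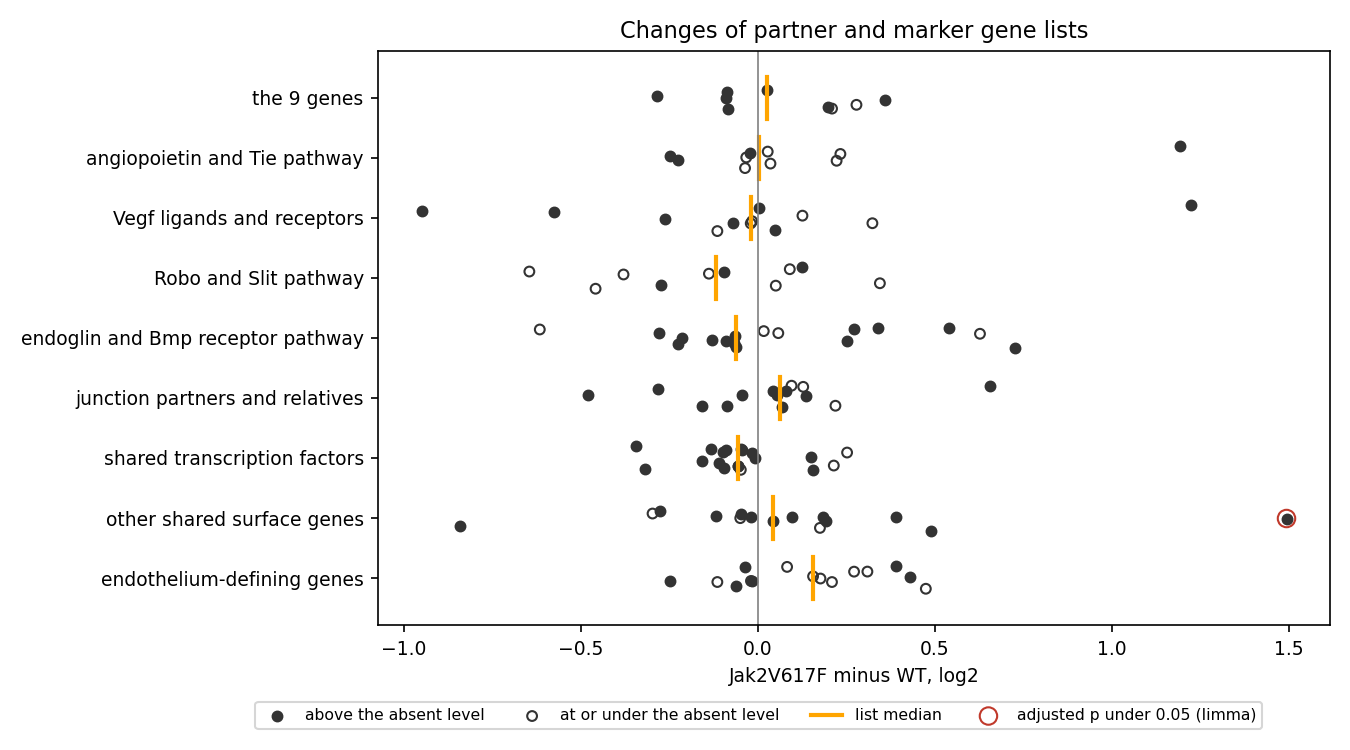
Change of each measured gene, Jak2V617F minus WT on the log2 scale, for the 9 genes and for 8 lists of partner and marker genes, 1 point per gene with vertical jitter. Filled points read above 6.78 on average and open points at or under it, orange lines are list medians, and a red ring marks a limma adjusted p under 0.05. Podxl at 1.49 is the only ringed gene.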

How the data were processed

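The deposited values of the 8 Affymetrix arrays are log2 intensities, a scale inferred from their range. According to the submitters' processing notes the authors used RMA, affy and R 2.11.0. The RNA was amplified linearly and labelled with biotin, per the labels' protocols. RMA makes array distributions alike, so a shift of most transcripts in 1 direction would not be seen. Scan dates were not used here, and no chip definition or build is given in the sources used here. Array medians lay between 7.06 and 7.15, and correlations between arrays between 0.991 and 0.995.

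Probe sets were named from the platform annotation. A single symbol was given for 34945 of 45101 probe sets, several for 932, and 9160 were not named here; 64 controls were left out. Each of 18193 genes was represented by its probe set with the highest mean. Genotypes were compared with limma 3.58.1 (lmFit, eBayes) in R 4.3.3, without covariates, two-sided, calling genes with a Benjamini-Hochberg adjusted p under 0.05 among all 18193. Further probe sets were tested among all 45037 that are not controls. P-values measure the spread between the 4 mice of each genotype.

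The members and gene lists were chosen with earlier results of these data known. Lists were described by counts and medians, and their named genes were drawn from those called and up to 4 with the smallest p. Other genes were named with their values in view. The alternatives tried were a block for the replicate number, median centring, repeated quantile normalization, dim genes left out (under 7.11), other choices of probe set, a trended robust prior, array weights, sex-linked expression as a covariate, each array left out and a threshold of 0.1. The arrays with Y-linked expression alone were added after seeing the data. In simulated data for the comparison of Jak2V617F with WT over 18193 genes, with 200 changed, limma recovered 38.8% of log2 changes of 0.5, 83.6% of log2 changes of 1 and 98.5% of log2 changes of 2.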

Additional observations from a re-analysis of the deposited data

How the results depend on the processing

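No member was called in any of the 20 alternatives run, in which each member with a value kept its side of the threshold, and the lowest adjusted p was 0.0983, for Pecam1. Directions held in all alternatives run for Tek, Tie1, Kdr, Esam, Cdh5, Pecam1 and Angpt1. Robo4 ran from -0.20 to 0.01 with an array left out, above 0 at 0.014 without Jak2V617F replicate 1 and at 0.013 without Jak2V617F replicate 4. Eng was -0.0029 with probe sets averaged and ran from -0.021 to 0.084 with an array left out, below 0 without Jak2V617F replicate 2 (-0.011) and without WT replicate 3 (-0.021). Leaving out dim genes removed Kdr and Cdh5, and leaving out probe sets ending in _s_at, _x_at or _a_at removed Eng and Pecam1, so these have no value there.

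The count of called genes, 30 (19 higher, 11 lower), was 24 with dim genes left out, 49 with probe sets averaged, 110 over all probe sets (44 higher, 66 lower), 75 with a trended robust prior, 60 with sex-linked expression as a covariate, 199 at a threshold of 0.1 and 13 to 40 with an array left out. Median centring gave 40 (21 higher, 19 lower) and repeated quantile normalization 26 (13 and 13). Among 97 partner genes, 1 was called, against 2 with median centring, with a trended robust prior and with sex as a covariate, 4 at a threshold of 0.1, 0 in arrays with Y-linked expression alone and 0 to 3 with an array left out. The causes of these shifts were not tested.

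The genotypes share replicate numbers 1 to 4. Same-numbered arrays had correlations of deviations from the genotype means of -0.02, -0.22, -0.06 and 0.10. Only replicate 4 of Jak2V617F correlated best with its own number. No pairing by number was thus seen, but 4 arrays per genotype are too few to exclude it. With the replicate number as a block, 8 genes, 0 members and 0 partner genes were called, and Podxl had a limma adjusted p of 0.0875.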

Other observations

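Genes whose array pattern was closest to a member were sought among genes with a mean over 7, by the root mean square difference of log2 values centred on each gene over the 8 arrays. This was done for the 4 members with an unadjusted p under 0.05. Closest to Esam were Acss2, an enzyme that makes acetyl-CoA (0.071), Cep350, of the centrosome (0.074), and Cflar, an inhibitor of caspase 8 activation (0.077). Closest to Pecam1 were Cfap126 (0.075), Hacl1 (0.077) and Gm45351 (0.084). For Cdh5 they were Ofd1 (0.026), Tk2 (0.044) and Stxbp2 (0.047), and for Kdr Scpep1 (0.048), Btrc (0.054) and Snx21 (0.057). No member was among the 3 closest genes of these 4. Kdr and Cdh5, with means under 7, could not have been found, and the other members were not searched.

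The collagen gene Col1a2 was uneven among WT arrays. Col1a1 and Col3a1, both under 6.78, were not, with WT means of 6.49 ± 0.19 and 4.93 ± 0.19 (SD). Col1a2 read 6.40, 6.60, 7.17 and 5.86 in Jak2V617F cells, against 9.83, 9.50, 6.74 and 6.85 in WT cells. The 2 high values were those of WT replicates 1 and 2, the WT arrays with Xist expression.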
